A study of Homo sapiens with 2 samples.

Results

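Alternative transcript end sites are the places where different RNAs of 1 gene stop because they use different last exons. They were taken as the transcript end events of loci that hold a single named gene and list 2 or more such events. Ends were matched between the libraries by chromosome, strand and the inner boundary of the last exon, here called its junction. Of 45949 end events in the library labelled NCOA5 knockout and 45954 in the wild-type library, 15806 of the knockout-labelled and 15849 of the wild-type events lay in such loci. Genes were kept where the FPKM of their ends (fragment counts scaled for transcript length and library size) summed to at least 5 in each library. That left 4063 ends in 1199 of 5776 genes, with a median of 3 ends per gene and a highest count of 13. The share of an end was its FPKM over the summed end FPKM of its gene, in percent. Just inside the minimum lay NUDT8, with sums of 5.86 FPKM in the knockout-labelled and 5.03 FPKM in the wild-type library, and just outside it NF2, with 6.01 FPKM in the knockout-labelled and 4.9963 FPKM in the wild-type library.

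The last exon of a messenger RNA is chosen by a contest between splicing and cleavage. If the cleavage machinery acts on a poly-A signal inside an intron, an upstream last exon is used, and if splicing removes that intron first, the RNA runs on to a downstream one. The choice can change the end of the protein, replace the untranslated region that carries sites for microRNAs and RNA-binding proteins, or yield an RNA with no protein. Ends that share a last exon but stop at different places within it were not separated here, because they share a junction.

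The RNA came from LM3, a human hepatocellular carcinoma cell line known for its metastatic growth in mice. One library carries the genotype label NCOA5 knockout and the title NCOA5/KO-1, and the other is labelled wild type, with 1 library of each and no other treatment given; whether the knockout cells are 1 clone is not stated in the labels. NCOA5 encodes a coregulator of nuclear receptors, and how the gene was disrupted is not given in the sources used here. With 1 library per genotype there was no replicate check, so each difference below was judged by its size alone and compares these 2 libraries, not the genotypes. Without read counts in the files, neither the depth nor the counting error can be given.

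The NCOA5 transcript was not lower under the knockout label. NCOA5 listed 1 end, at chr20:46060985-46062889 on the minus strand of hg38, and so was not among the genes with alternative ends. That end stood at 25.4 FPKM in the knockout-labelled library against 20.03 FPKM in wild type, and for this reason the text speaks of the knockout-labelled library. Forms worth 9.55 FPKM in the knockout-labelled library skipped the exon at 46070210 to 46070536, and wild type listed no such form. A shorter version of that exon, 46070210 to 46070473, stood at 3.97 FPKM in the knockout-labelled library and was not listed in wild type either. The full exon stood at 11.9 FPKM in the knockout-labelled library. Of 14 hepatocyte markers, 6 had at least 1 FPKM in both libraries, with sums over the list of 49.6 FPKM in the knockout-labelled library and 42.4 FPKM in wild type, among them HNF4A (17.4 FPKM in the knockout-labelled library and 17.5 FPKM in wild type), while ALB was low, at 2.92 FPKM in the knockout-labelled library and 1.41 FPKM in wild type, GPC3 was listed at 0 in both, and 3 had no single-gene locus. Of 8 fibroblast markers 1 reached 1 FPKM in both libraries, LUM, at 27.2 FPKM in the knockout-labelled library and 14.005 FPKM in wild type. The sums over that list were 44.2 FPKM in the knockout-labelled library and 14.8 FPKM in wild type, where COL6A3, at 14.7 FPKM in the knockout-labelled library, had no single-gene entry. Of 6 endothelial markers 3 did so, PECAM1, KDR and ESAM, with summed levels over the list of 29.9 FPKM in the knockout-labelled library and 25.2 FPKM in wild type. None of 6 leukocyte markers did so, with sums of 1.91 FPKM in the knockout-labelled library and 0.958 FPKM in wild type, and CD3E and CD14 were listed at 0 in both. Whether other cells took part in any result was not tested.

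Most ends were listed at 0 in both libraries. Of the 4063 ends, 2563 (63.1%) were at 0 FPKM in both libraries, 1321 were above 0 in both, 96 were above 0 in the knockout-labelled library only and 83 in wild type only. An exact 0 can be a failed estimate, so such ends are described as listed at 0 and no fold is given for them. Ends were set against the transcripts of GENCODE 29 whose last exon begins at the same junction. Last exons of protein-coding transcripts not tagged as incomplete at the 3′ end made up 1941 ends (47.8%). For 235 of them the annotated coding length is not a multiple of 3, so those transcripts, among them the upstream ones of HACD1 and PLAA, are not complete. Of the 1941 ends 68.3% were above 0 in either library, and they carried 96.2% of the end FPKM in the knockout-labelled library and 95.7% in wild type. Of 927 ends annotated as retained introns 4.10% were above 0, as were 6.27% of 271 ends of transcripts subject to nonsense-mediated decay, the pathway that degrades RNAs with an early stop codon. Of 635 ends of other noncoding transcripts 8.35% were above 0, and of 205 ends known only from transcripts tagged as incomplete at the 3′ end 3.90% were. Of the 63 ends at no annotated boundary 74.6% were above 0. The median last exon was 745 bases long for ends above 0 in either library and 300 bases for ends at 0 in both (lengths of 1500 and 2563 ends). The junction was also the start of an internal exon of another transcript for 18.1% of the ends above 0 and 68.5% of those at 0.

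Poly-A signals were looked for at the annotated transcript ends. The signal AATAAA, or its common variant ATTAAA, was searched on the transcript strand in the last 40 bases of the GENCODE 29 transcript at each end. At least 1 of the 2 was present in 65.3% of 1442 ends above 0 in either library and in 19.98% of 2537 ends at 0 in both, against 30.2% of all GENCODE 29 transcripts. Among coding ends the shares were 68.5% above 0 and 46.5% at 0, and among retained introns 26.3% above 0 and 10.2% at 0. None of the 8 incomplete ends above 0 held either. The annotated 3′ boundary of a transcript need not be where these cells cleave the RNA.

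**Figure D1:**
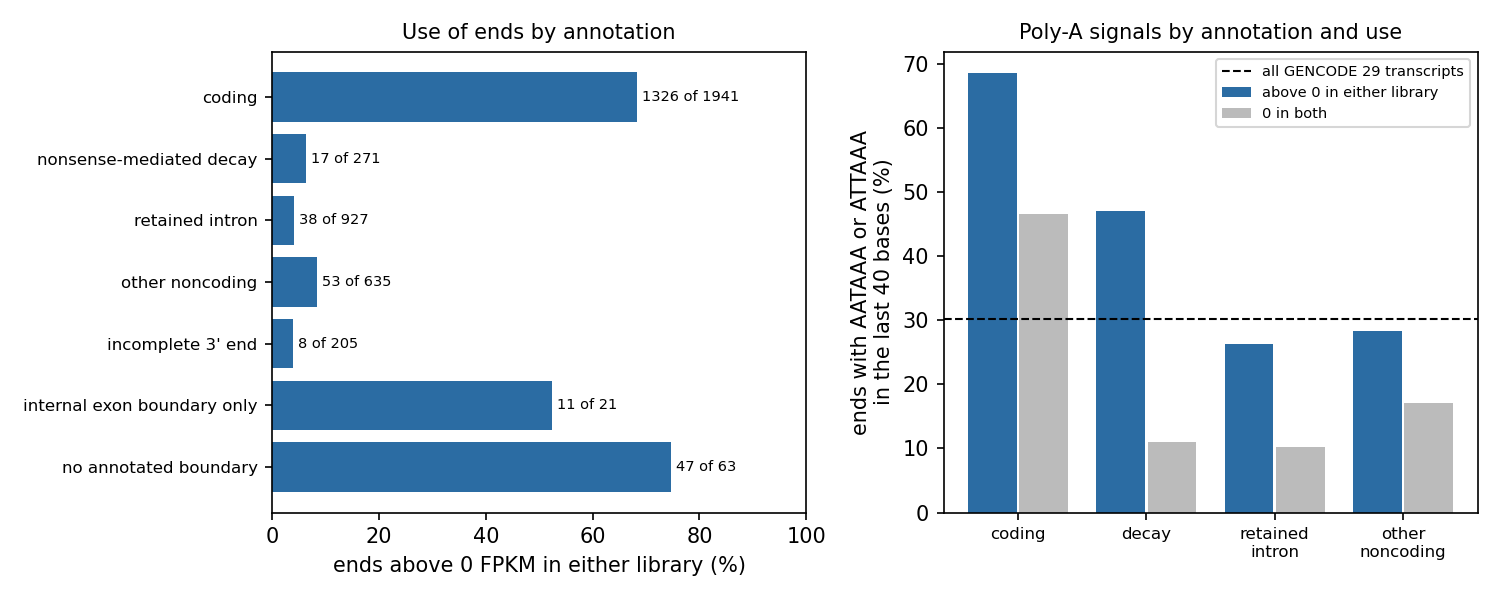
Left, the percent of ends above 0 FPKM in either library for each annotation class, with counts beside the bars; coding last exons were above 0 in 68.3%, retained introns in 4.10%. Right, the percent of ends whose annotated transcript holds AATAAA or ATTAAA in its last 40 bases, for ends above 0 (dark) and at 0 in both libraries (grey), with all GENCODE 29 transcripts as a dashed line at 30.2%.

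The sequences of 4 genes show what the alternatives look like at their splice junctions. Each line gives 15 bases of the exon before the last one in lower case and the first 15 bases of the last exon in capitals, 5′ to 3′, from the GENCODE 29 transcript on hg38. HACD1, CNIH1 and PLAA differ in which exon comes last. In each of them the junction of the upstream end is also the start of an internal exon of another transcript. AFTPH has 2 last exons whose starts lie 3 bases apart, so that the later one begins after the TAG of the earlier one.
HACD1 upstream end, chr10:17599397-17599411, minus strand: cacagtataaaaccaATCCAGAATGAAGAG
HACD1 downstream end, chr10:17590432-17590446, minus strand: catcatatataccttTGTTTCCACAACTCT
CNIH1 upstream end, chr14:54430390-54430404, minus strand: atatcatatttggagGTATATGAGTAGACC
CNIH1 downstream end, chr14:54427827-54427841, minus strand: ttactacctatatggCATGATCTATGTTTT
PLAA upstream end, chr9:26907984-26907998, minus strand: ctacacaaatattagGTAAACTGAAGGAAC
PLAA downstream end, chr9:26906062-26906076, minus strand: ttaactgtcctgaagATATTGTCTTTCCTG
AFTPH upstream start of the last exon, chr2:64591885-64591899, plus strand: aagcacatctaccagTAGGAAACCGAAAAG
AFTPH downstream start of the last exon, chr2:64591888-64591902, plus strand: aagcacatctaccagGAAACCGAAAAGAGA

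Both ends of HACD1 have a poly-A signal of their own. The windows hold 30 bases of the annotated transcript near its 3′ boundary, with the signal in capitals. In HACD1 the upstream and the downstream end each carry AATAAA, and in CNIH1 the downstream end carries AATAAA while the last 40 bases of the upstream transcript hold neither.
HACD1 upstream end, chr10:17599076-17599105, minus strand: aggaatcgtattAATAAAtattttgagtga
HACD1 downstream end, chr10:17589034-17589063, minus strand: gtccttgtgtttAATAAAaaaaatacacca
CNIH1 downstream end, chr14:54423565-54423594, minus strand: gcttttgtatttAATAAAagctgtcttaaa

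Most genes had 1 end above 0 in each library. In 948 of 1199 genes (79.1%) a single end was above 0 in each library, and it was the same end in 944 of them. The total shift of a gene was the absolute share differences summed over its ends and divided by 2, so 100 points mean a complete change of ends, and 20 points or more were called a shift. A shift was called in 130 of 1199 genes (10.8%). Of the 4063 ends, 130 (3.2%) were higher in share by at least 20 points in the knockout-labelled library and 130 (3.2%) lower. The end with the largest share differed in 50 genes (4.17%). CSE1L, at 19.9 points, lay just below the call, and ZCCHC14, at 20.3, just above it.

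In most of the shifted genes an end was listed at 0 or not listed in 1 library. An end not listed in a library had no entry in its single-gene loci with 2 or more ends, and was given a share of 0. The deposited data of that library may still hold such an end in a locus that the rule leaves out. Of the 130 genes, 118 had a most risen or most fallen end at 0 somewhere: in the knockout-labelled library alone in 42, in wild type alone in 57 and in each library in 19. With shares taken only over ends above 0 in both libraries, 14 of 1179 genes were shifted. These 1179 genes held 1306 such ends, and a gene left with 1 end has a shift of 0 by construction. When ends had to share their far boundary as well as their junction, 206 of 1199 genes were shifted. Among the 126 genes with 2 or more ends above 0 in both libraries, the median total shift over all their ends was 6.62 points, with quartiles of 2.06 and 17.0, 76 lay under 10 points and 25 were called. Start sums checked the listing of ends: summed start and end FPKM agreed within 5% in both libraries in 924 genes, of which 91 (9.85%) were called.

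**Figure D2:**
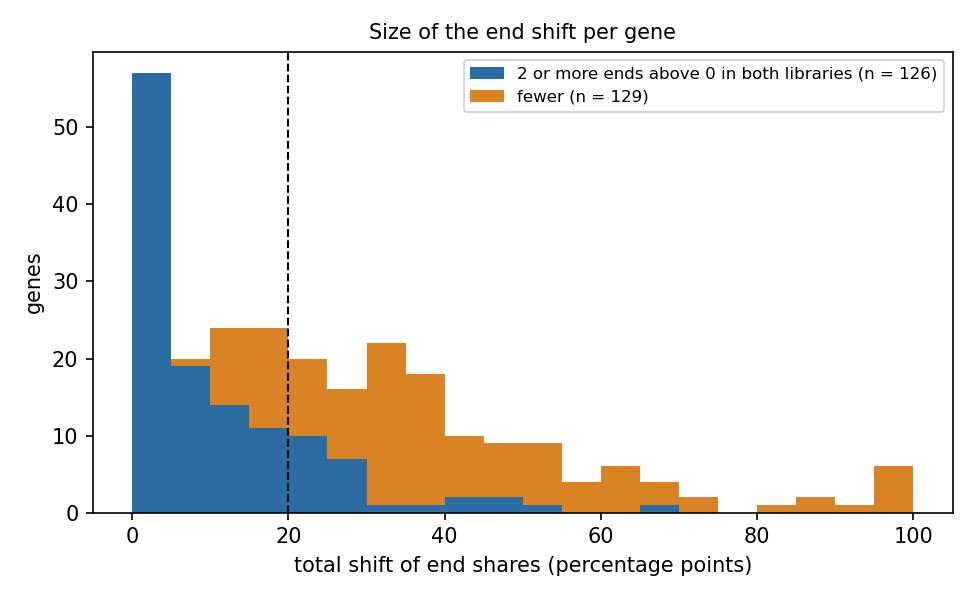
Number of genes by total shift of end shares in bins of 5 percentage points, for genes whose shares differed or that had 2 or more ends above 0; the dashed line marks the call at 20 points. Genes with 2 or more ends above 0 in both libraries (n = 126) gather below 10 points, and the shifts beyond 70 points belong to the other genes.

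**Figure D3:**
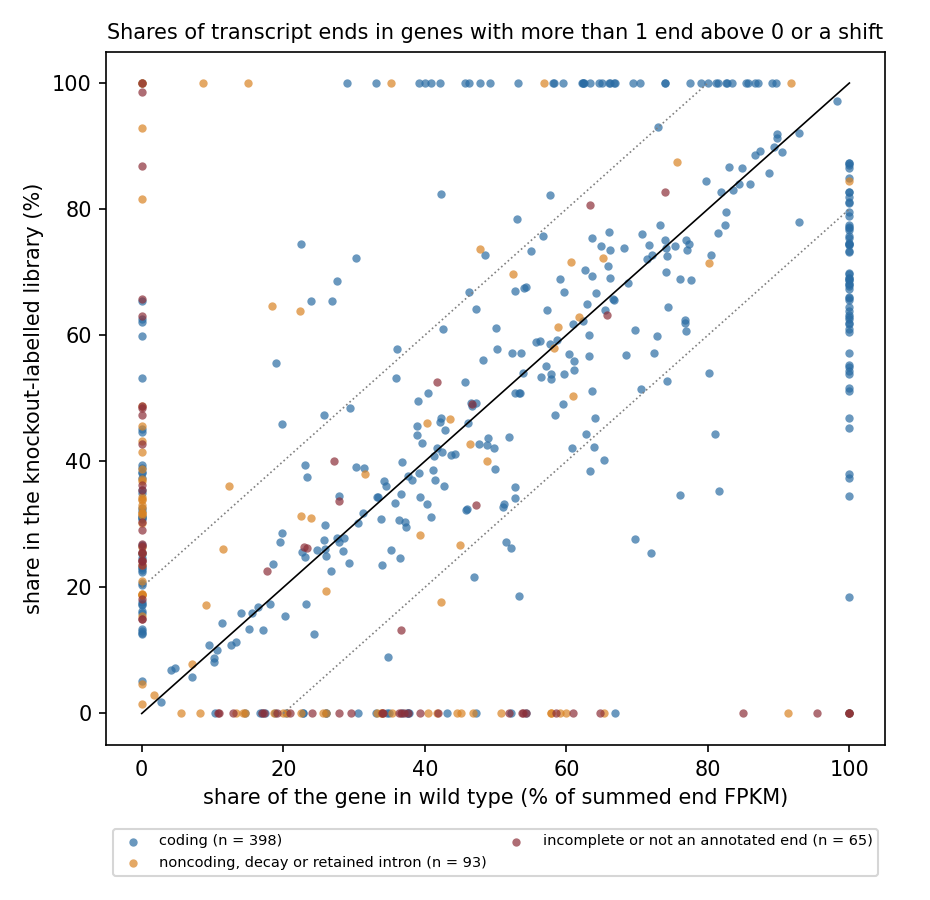
Share of each end in the knockout-labelled library (vertical) against wild type (horizontal), in percent of the gene's summed end FPKM, coloured by annotation; the solid line marks equal shares and the dotted lines 20 points of difference. Many points beyond the dotted lines lie on the edges of the plot, where an end is listed at 0 or holds all of the gene in 1 library.

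Among genes whose start and end sums agree and whose shifted ends were above 0 in both libraries, those that passed the call included TMEM134, HACD1, PQLC2, OXNAD1, PLAA and CNIH1. HACD1, a dehydratase of very long chain fatty acid synthesis, differed toward its downstream end. Its downstream end (chr10:17589032-17590446) stood at 8.84 FPKM in the knockout-labelled library and 2.66 FPKM in wild type, and its upstream end (chr10:17599074-17599411) at 7.05 FPKM in the knockout-labelled library and 11.4 FPKM in wild type. The downstream end held 55.6% of the gene in the knockout-labelled library and 18.9% in wild type. Both last exons contain a stop codon, so the 2 forms encode different C termini.

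CNIH1, a cargo receptor for export from the endoplasmic reticulum, was the most abundant of these. Its downstream end (chr14:54423560-54427841) stood at 57.4 FPKM in the knockout-labelled library and 36.2 FPKM in wild type, and its upstream end (chr14:54430158-54430404) at 63.9 FPKM in the knockout-labelled library and 104.65 FPKM in wild type. The downstream share was 47.3% in the knockout-labelled library and 25.7% in wild type, and the upstream end remained the larger in both. The annotated coding lengths are 432 bases for the downstream and 408 for the upstream form.

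PLAA, a ubiquitin-binding protein, had the downstream end (chr9:26904083-26906076) at 57.7% in the knockout-labelled library and 36.03% in wild type. Its levels were 5.31 FPKM in the knockout-labelled library and 3.37 FPKM in wild type. The rest lay at an upstream end (chr9:26907610-26907998). OXNAD1, an oxidoreductase, had the downstream end (chr3:16337112-16337361) at 72.8% in the knockout-labelled library and 48.5% in wild type, at 5.02 FPKM in the knockout-labelled library and 2.68 FPKM in wild type. In PLAA and OXNAD1, as in HACD1, the end with the largest share was not the same in both libraries.

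TMEM134 and PQLC2 differed toward their upstream ends. In TMEM134 an end annotated as a retained intron (chr11:67466808-67467388) stood at 9.46 FPKM in the knockout-labelled library and 1.71 FPKM in wild type. That was 64.6% of the gene in the knockout-labelled library and 18.5% in wild type. Its coding downstream end (chr11:67461710-67464696) stood at 5.17 FPKM in the knockout-labelled library and 7.53 FPKM in wild type. In PQLC2, which encodes a lysosomal exporter of cationic amino acids, the upstream end (chr1:19327571-19328081) had 4.58 FPKM in the knockout-labelled library and 2.39 FPKM in wild type, with shares of 45.9% in the knockout-labelled library and 19.8% in wild type. The annotated coding length of that upstream form is 381 bases, against 873 for the downstream one.

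The next 3 genes by the same ordering did not reach 20 points. AFTPH, a protein of clathrin-coated vesicles, had the later of its 2 neighbouring last exon starts at 64.1% in the knockout-labelled library and 47.3% in wild type. TRAIP, a ubiquitin ligase of the replication fork, had a longer last exon, which contains the usual one, at 39.4% in the knockout-labelled library and 23.1% in wild type. ZXDC, a zinc finger protein, had its downstream end at 67.0% in the knockout-labelled library and 52.8% in wild type.

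**Figure D4:**
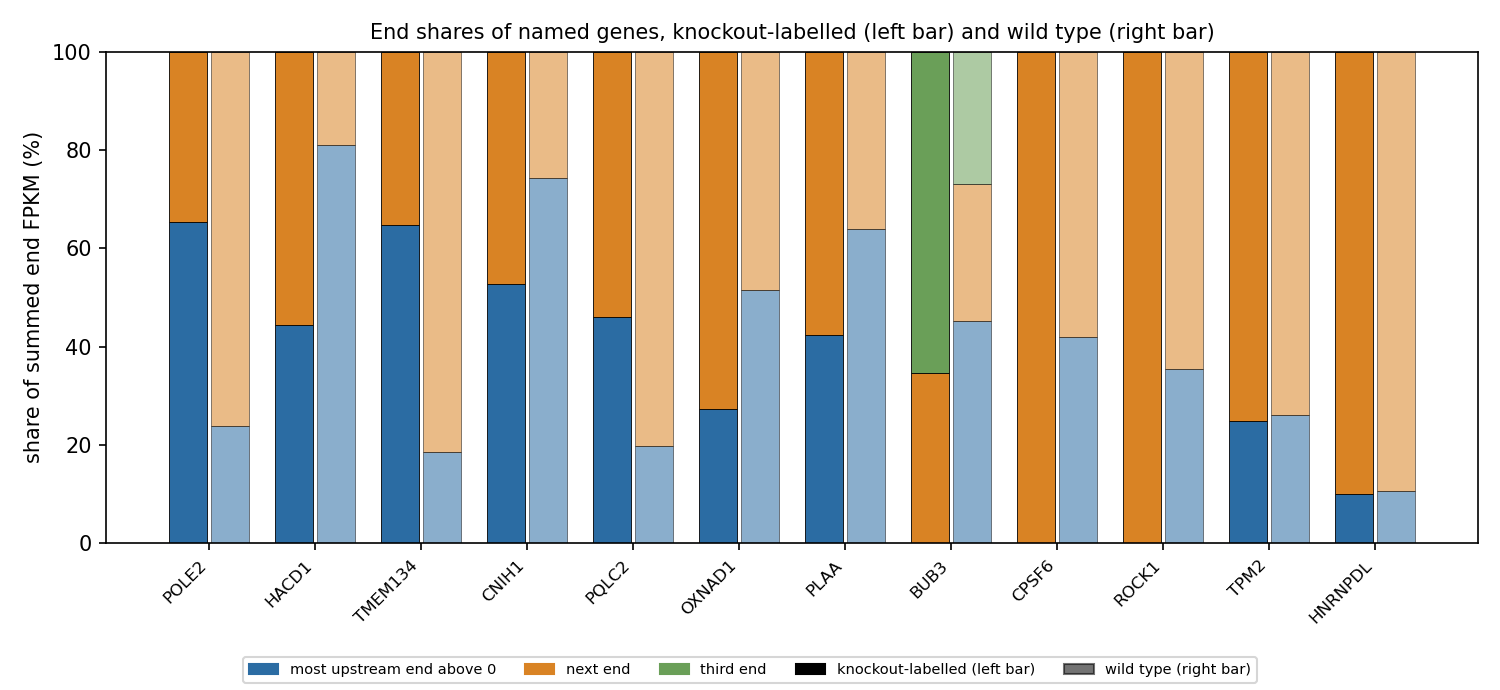
Shares of the ends of 12 genes in percent of summed end FPKM, with the knockout-labelled library as the left, darker bar and wild type as the right, paler bar; colours run from the most upstream end above 0 (blue) to the next (orange) and the third (green). POLE2 and TMEM134 have more of the upstream end in the knockout-labelled library, HACD1 and CNIH1 less, and TPM2 and HNRNPDL have nearly equal bars.

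In 5 further genes both shifted ends were above 0 in both libraries, but start and end sums did not agree; of these POLE2 was named by its list and the others were chosen after their values were seen. POLE2, a subunit of the replicative DNA polymerase epsilon, had its upstream end (chr14:49650119-49650441) at 5.51 FPKM in the knockout-labelled library and 1.84 FPKM in wild type. The share was 65.4% in the knockout-labelled library and 23.9% in wild type. In single-gene loci no start event of POLE2 was listed above 0, so its sums could not be checked. ACP6, a lysophosphatidic acid phosphatase, had its downstream end at 74.5% in the knockout-labelled library and 22.4% in wild type. Its ends summed to 12.6 FPKM in the knockout-labelled library and 21.7 FPKM in wild type, and its starts to 12.6 FPKM in the knockout-labelled library and 7.33 FPKM in wild type. HRAS, a small GTPase of growth factor signalling, had its shorter last exon (chr11:532246-532522) at 22.3 FPKM in the knockout-labelled library and 15.5 FPKM in wild type, with shares of 78.4% in the knockout-labelled library and 52.98% in wild type. COMTD1 had its coding downstream end at 82.3% in the knockout-labelled library and 57.7% in wild type, and ZDHHC20, a palmitoyltransferase, its downstream end, annotated for nonsense-mediated decay, at 73.7% in the knockout-labelled library and 47.8% in wild type.

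In each of the 10 largest shifts an end was listed at 0 or not listed in 1 library. In 5 genes the shift was 100 points. FANCL, the ubiquitin ligase of the Fanconi anaemia pathway, had 10.4 FPKM in the knockout-labelled library, all at 1 end (chr2:58159243-58161638). As the start of a last exon, the junction of that end is annotated only in transcripts tagged as incomplete. It is also the start of an internal exon of another transcript. In wild type FANCL had 15.1 FPKM, all at the annotated coding end (chr2:58159243-58159800). The 2 last exons of FANCL share their far boundary, so the longer one contains the shorter one. YIPF4, a protein of Golgi membranes, likewise had the longer, containing last exon in the knockout-labelled library, but there the longer one is the annotated coding end. It stood at 5.14 FPKM in the knockout-labelled library at the annotated end of 11106 bases (chr2:32305489-32316594) and at 6.95 FPKM in wild type at an unannotated last exon of 2951 bases inside it (chr2:32313644-32316594).

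PLXNA2, a receptor for semaphorins, stood at 8.62 FPKM in the knockout-labelled library at a noncoding end and at 15.6 FPKM in wild type at its coding end. That coding end was not listed in the knockout-labelled library, so its share of 0 there is not a measured value. The starts of PLXNA2 summed to 19.6 FPKM in the knockout-labelled library and 15.6 FPKM in wild type, more than its ends in the knockout-labelled library. POLB, the polymerase of base excision repair, had 6.80 FPKM in the knockout-labelled library at an end of 27 bases annotated for nonsense-mediated decay. In wild type it had 10.2 FPKM at a retained intron end of 67 bases. None of its 5 listed ends was coding. The starts of POLB summed to 15.7 FPKM in the knockout-labelled library and 17.4 FPKM in wild type, above its ends in both. FHIT, a hydrolase of dinucleotides encoded at a fragile site, used different unannotated ends, with 19.2 of its 19.5 FPKM in the knockout-labelled library at one and 8.89 FPKM in wild type at the other.

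HMGB1, an abundant chromatin protein, had the highest level among these genes. An end annotated as noncoding (chr13:30462346-30462712) stood at 286.8 FPKM in the knockout-labelled library and was listed at 0 in wild type, while its coding end (chr13:30460895-30461533) stood at 64.9 FPKM in the knockout-labelled library and 79.4 FPKM in wild type. The starts of HMGB1 summed to 422 FPKM in the knockout-labelled library and 268 FPKM in wild type, above its ends in both. HMGB1 has near-identical pseudogene copies, so its values are uncertain where the counting could split reads among them. SLC35E3, a solute carrier, shifted by 95.4 points between an end of 157 bases and an unannotated end of 25 bases. The other 3 of the 10 largest carry clone-based names. AC006262.5, a noncoding RNA named IGFL2-AS1 in GENCODE 29, had an end at 0 FPKM in the knockout-labelled library, against 165 FPKM in wild type, and another end at 17.5 FPKM in the knockout-labelled library and 15.5 FPKM in wild type. Without a stated use of strand, its reads and those of an overlapping gene on the other strand cannot be told apart. RP11-328J2.1, a noncoding RNA named LINC02476 in GENCODE 29, had an end listed in wild type alone, at 25.5 FPKM. CTD-2535I10.1 had 4 ends above 0, all at unannotated boundaries, with 86.8% of the gene in the knockout-labelled library at an end listed in that library alone.

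Few genes of the listed pathways had alternative ends above the minimum, and 6 of them were shifted. The shares below stand against 10.8% of all 1199 genes. Of the 5 genes of mRNA 3′ end processing with shares, 1 was shifted: CPSF6, a subunit of the cleavage factor that guides the choice of poly-A sites. CPSF6 had 58.9 FPKM in the knockout-labelled library at an end at chr12:69269512-69269573, against 32.3 FPKM in wild type. The last exon of that end is 62 bases long, and its annotated transcript has 168 coding bases. None of the other listed ends of CPSF6 was annotated as coding. An unannotated end upstream (chr12:69267496-69267601) was listed in wild type alone, at 23.3 FPKM or 41.9% of the gene. Summed over ends, CPSF6 stood at 58.9 FPKM in the knockout-labelled library and 55.6 FPKM in wild type.

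Of 3 migration genes with shares, 2 were shifted. ROCK1, a kinase of cell contraction, had its coding end alone in the knockout-labelled library, at 13.7 FPKM, against 16.1 FPKM in wild type, where a retained intron end added 8.80 FPKM. The starts of ROCK1 summed to 13.7 FPKM in the knockout-labelled library and 14.9 FPKM in wild type, less than its wild-type ends. DOCK1, an activator of the GTPase RAC, had 33.9% of its FPKM in the knockout-labelled library at a noncoding end listed at 0 in wild type.

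Of 4 mitosis genes 1 was shifted, BUB3, a protein of the spindle checkpoint. The end with its most downstream junction (chr10:123165047-123165255) stood at 59.3 FPKM in the knockout-labelled library and 35.4 FPKM in wild type. The last exon of the other coding end (chr10:123163820-123165255) contains the first and stops at the same base. That other end stood at 31.3 FPKM in the knockout-labelled library and 36.7 FPKM in wild type. Another, noncoding end was listed at 0 in the knockout-labelled library, against 59.4 FPKM in wild type. The ends of BUB3 summed to 90.6 FPKM in the knockout-labelled library and 131.5 FPKM in wild type. Its starts summed to 90.6 FPKM in the knockout-labelled library and 94.8 FPKM in wild type, less than its wild-type ends. Over ends above 0 in both libraries, the first end was higher by 16.3 points, below the call.

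Of 9 DNA replication genes 1, POLE2, was shifted, and of 6 splicing regulators 1, CELF1, an RNA-binding protein. CELF1 had an end listed at 0 in the knockout-labelled library, against 19.9 FPKM in wild type. Its other end stood at 22.6 FPKM in the knockout-labelled library and 16.7 FPKM in wild type. The last exon of this other end contains the one listed at 0. The starts of CELF1 in single-gene loci summed to 28.8 FPKM in wild type, against 36.7 FPKM for its ends. None of these starts was above 0 in the knockout-labelled library, so its start and end sums did not agree. HNRNPDL, a further splicing regulator, was steady, with its main end at 89.9% in the knockout-labelled library and 89.4% in wild type. The 1 epithelial gene with shares, PKP2 of the desmosome, and the 1 mesenchymal gene, FN1, had a shift of 0 points. All 8 lists and their members were chosen with earlier results of these data known.

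Of 26 genes known for alternative last exons, 3 had shares, and 0 were shifted. TPM2, a tropomyosin of actin filaments whose last exons encode different C termini, used both. Its downstream end (chr9:35681992-35682163) stood at 158.6 FPKM in the knockout-labelled library and 206.8 FPKM in wild type, and its upstream end (chr9:35682930-35683241) at 52.7 FPKM in the knockout-labelled library and 72.8 FPKM in wild type. The upstream share was 24.9% in the knockout-labelled library and 26.0% in wild type. CSTF3, a subunit of the cleavage stimulation factor known for a short form from an intronic signal, had only its full-length end above 0, at 19.1 FPKM in the knockout-labelled library and 18.6 FPKM in wild type. HMGA2, a chromatin protein with several known last exons, had only its distal coding end above 0, at 11.9 FPKM in the knockout-labelled library and 15.1 FPKM in wild type.

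Among the 5 genes with the largest end sums, 4 had a shift of 0 points. EEF1A1, the elongation factor of translation, had a single end above 0, at 2509 FPKM in the knockout-labelled library and 2280 FPKM in wild type. The ribosomal protein genes RPS16 and RPL35 and FN1, which encodes fibronectin, were likewise at a single end. EEF1A1 and the ribosomal protein genes have many pseudogene copies, which makes their levels uncertain. ALDH1A1, a retinal dehydrogenase, had all its FPKM at the coding end in the knockout-labelled library and 82.7% in wild type, a shift of 17.3 points. Among genes with 2 ends above 0 in both libraries, the following were picked for their level after the values were seen. TKT, the transketolase of the pentose phosphate pathway, had 83.1% at its main end in the knockout-labelled library and 83.5% in wild type. NAP1L1, a histone chaperone, had its main end at 59.2% in the knockout-labelled library and 58.7% in wild type, and EDF1 at 84.02% in the knockout-labelled library and 86.01% in wild type. NHP2, a protein of the H/ACA ribonucleoprotein, had its downstream end at 57.8% in the knockout-labelled library and 50.2% in wild type.

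The shifts went in both directions along the gene. Positions here are those of the junctions, where the last exons begin, not of the places where the RNAs stop. The mean junction position, weighted by share, lay further downstream in the knockout-labelled library in 71 genes (5.92% of 1199). In 59 (4.92%) it lay further upstream. FANCL and YIPF4 count as upstream, although by the coordinates given above the 2 last exons of each stop at the same base. CELF1 counts as upstream too, although its risen last exon runs further downstream than the fallen one. The median move was 1307 bases downstream and 1871 bases upstream. Among shifted genes whose start and end sums agree, 47 moved downstream and 44 upstream. The main end had the most downstream listed junction in 71.0% of genes in the knockout-labelled library and 70.4% in wild type.

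In 50 of the 130 shifted genes the most risen and the most fallen end were both coding, and in 42 of these each last exon held a stop codon. In 27 the risen end was coding and the fallen end was not, in 38 it was the reverse, and in 15 neither was. At least 1 of the 2 ends lay at no annotated terminal exon in 29 of the 130, and in 17 a last exon was under 50 bases long. In 75 of the 130 (57.7%) the junction of at least 1 of the 2 ends was also the start of an internal exon of another transcript. Poly-A signals were found in 49.1% of 112 risen and 50.9% of 110 fallen ends with an annotated transcript.

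Summed end levels were set beside the shifts. At least 2-fold differences on the log2(FPKM + 1) scale were seen in 13 of 130 shifted genes, of which 7 stood higher and 6 lower, and in 7 of the 1069 other genes (0.655%). Sum and shares come from the same end values, so the 2 measures are not independent.

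The genes that make 3′ ends were compared by their summed end levels. Of 32 genes on the list, 17 were measured, with at least 1 FPKM summed over ends in either library, 4 were below that and 11 had no end in a single-gene locus. All 17 were above 0 in both libraries, and 0 of them differed by 2-fold. Of the 5475 genes above 0 in both libraries, 1.64% were 2-fold higher and 2.45% lower. Over all 6305 genes measured the shares were 8.1% higher and 8.61% lower, but these count 830 genes listed at 0 in 1 library, so nothing is read from the 17 against them. The median log2 ratio of the 17 was 0.04, and that of all 6305 genes 0.01. CSTF1, of the cleavage stimulation factor, had the lowest ratio, at 15.1 FPKM in the knockout-labelled library and 28.7 FPKM in wild type, a log2 ratio of −0.89, but its starts summed to 28.3 FPKM in the knockout-labelled library and 28.7 FPKM in wild type. CSTF2, which binds downstream of the cleavage site, had a log2 ratio of 0.25, the endonuclease CPSF3 −0.25, WDR33, which binds the AAUAAA signal, −0.16, the exonuclease XRN2 0.15 and the poly-A polymerase PAPOLG 0.12.

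Starts were treated in the same way as ends. Of 4605 genes with 2 or more start events, 1029 (22.3%) had a shift of start shares of at least 20 points, and the main start differed in 461 (10%). Of 22384 starts, 1051 (4.7%) were higher in share by as much and 1024 (4.57%) lower, and the mean start lay further downstream in 537 of the genes (11.7%) and further upstream in 492 (10.7%). Genes had on average 4.86 listed starts and 3.39 listed ends, and the difference between starts and ends was not tested. Of the shifted genes, 46 also had start shares, and 10 of these had a start shift, against 95 of 551 genes without an end shift.

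The listing of ends was uneven between strands. Of the 1199 genes 919 (76.6%) lay on the minus strand, against 49.2% of the GENCODE 29 genes with 2 or more terminal exon boundaries and 44.5% of the genes with start shares. Shifts were called in 101 of 919 genes (10.99%) on the minus strand and 29 of 280 (10.4%) on the plus strand. The program's use of strand is not given in the sources used here.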

How the data were processed

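RNA of 2 libraries, 1 per genotype label, was sequenced. The labels' protocols state an enrichment of poly-A RNA, 12 PCR cycles and paired reads of 100 bases. The deposited tables, 1 per library, give an FPKM value for each start, end and splicing event, per the file headers. The submitters' processing notes name hg38 and Bowtie 0.12.2, without a role. The sources used here do not name the event caller, its annotation, filters or strand use. Per-library read totals are unknown, so no interval was possible.

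An end listed in the loci kept from 1 file only (42 and 47 ends in the knockout-labelled and wild-type files) was given a share of 0 in the other. Loci that the rule leaves out were not searched for such ends. Gene levels were compared as the log2(FPKM + 1) of summed ends in the knockout-labelled library minus that in wild type. GENCODE 29 (GRCh38) gave annotated exons and transcript sequences. Coordinates and lengths of last exons are those of the knockout-labelled library, or of wild type for ends listed there alone. The far boundary of an end can differ in the other library, so statements on where last exons stop rest on these coordinates. For marker genes the larger of start and end sums was used.

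Named genes were NCOA5, the 10 largest shifts, the 10 largest among genes with agreeing sums and both shifted ends above 0, the 5 largest sums, every gene with shares known for alternative last exons, up to 4 genes of each other list with the largest shifts, and up to 6 genes of 3′ end processing with the largest ratios. Members, lists and tests were chosen with earlier results of these data known. Python 3.11.15, numpy 2.4.6, pandas 2.3.3 and matplotlib 3.10.9 were used, and the procedure was tested on simulated data. Alternatives covered the minimum sum, the call, matching, zeros, sums and biotypes. Added after seeing the data were merging of near junctions, a minimum exon length and annotated ends only. Some items that the rule names are not reported here.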

Additional observations from a re-analysis of the deposited data

How the results depend on the processing

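The counts depended most on ends at 0 or not listed. In the order genes shifted, ends higher, ends lower, genes with another main end, genes moved downstream and genes moved upstream, the reported counts are 130, 130, 130, 50, 71 and 59. With only ends above 0 in both libraries they were 14, 14, 14, 17, 9 and 5. A minimum sum of 1 FPKM gave 239, 244, 244, 103, 124 and 115 in 1617 genes, and of 20 FPKM 51, 52, 51, 20, 30 and 21 in 555 genes. Matching also by the far end of the last exon gave 206 genes, 222 ends higher and 222 lower. With agreeing sums, 32 genes had another main end and 47 moved downstream. The remaining counts stayed within 1.5 times of those reported, also under the 3 alternatives added after seeing the data. For fewer zeros, other minima and agreeing sums, fewer or more genes or ends enter by construction; otherwise the cause was not tested. Of 46 called ends of named genes, 16 stayed past the call with only ends above 0 in both libraries, 7 fell below it and 23 were left out. With only ends listed in both files, and with only annotated ends complete at the 3′ end, 32 stayed, 1 fell below and 13 were left out. With last exons of at least 50 bases 40 stayed and 6 were left out, with near junctions merged 46 stayed, and 0 turned under these 5. At 30 points 38 of the 46 were called. The other settings cannot change a named gene's shares by junction. No gene of 3′ end processing passed 2-fold under any of the 3 alternatives run. No paired analysis was possible because each genotype has 1 library, and no replicate could be left out. Depth is unknown, so no limit of detection can be given.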

Other observations

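Some shifted genes not described above had 2 ends above 0 in both libraries and a further end at 0 or not listed in 1 of them; they were chosen after their values were seen. MED1, a subunit of the Mediator complex that binds nuclear receptors, had an unannotated end at 4.42 FPKM in the knockout-labelled library that was not listed in wild type, while its full-length coding end stood at 6.41 FPKM in the knockout-labelled library and 10.1 FPKM in wild type. TPGS2, a subunit of the tubulin polyglutamylase, had a coding end at 16.1 FPKM in the knockout-labelled library that was listed at 0 in wild type. NOP14, a factor of small ribosomal subunit assembly, had a coding end at 10.6 FPKM in the knockout-labelled library that was listed at 0 in wild type, and another at 6.07 FPKM in the knockout-labelled library and 14.6 FPKM in wild type. RPS27L, a p53 target related to a ribosomal protein, had a noncoding end at 9.32 FPKM in the knockout-labelled library that was listed at 0 in wild type. LACTB2, a mitochondrial nuclease, had a retained intron end at 0 FPKM in the knockout-labelled library, against 23.2 FPKM in wild type.

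By chromosome, the share of genes with an end shift ran from 4.55% of 44 genes on chromosome 14 to 23.8% of 21 genes on chromosome 13, against 10.8% over all genes.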
